A study of Danio rerio with 2 samples.

Results

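Immune genes that belong to large, copy-rich families in fish were followed in zebrafish (Danio rerio), as RNA of whole embryos of the AB background 28 hours post fertilization. They were chosen by name: a gene was included when its NR or Swiss-Prot annotation named a NACHT, NLRP or NLRC protein, a GTPase IMAP, a tripartite motif, interferon-induced or membrane-spanning 4-domains protein, a C-type or Ig-like lectin, a chemokine, an interleukin or a histocompatibility antigen. The chemokine gene cxcl18b was left out. This gave 38 of the 1287 genes in the deposited table, in 10 families. The words "CD antigen-like" and "polymeric immunoglobulin receptor" matched no gene. By their product names most of the 38 are immune genes, but trim67 and a FRAS1-related matrix gene encode proteins known for other roles. Also included were nfil3-2, a transcription repressor gene, and a gene named after il17rd, a name also known from growth factor signalling. The compared groups were wild-type (WT) embryos and embryos homozygous mutant for ezh2 (ezh2-/-), which encodes the catalytic subunit of Polycomb repressive complex 2, an enzyme that marks silenced genes on histone H3. Each group was 1 messenger RNA library, so no spread between replicates, no test and no p-value can be given, and each value describes these libraries. The sources used here do not give the mutant allele or the number of embryos per library.

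These families make up much of the inherited, first-line side of fish immunity. NOD-like receptors (NLRs) are cytoplasmic sensors that can assemble inflammasomes, GIMAP and very large interferon-induced GTPases act inside immune or infected cells, and many tripartite motif (TRIM) proteins are ubiquitin ligases, some of them antiviral. Cell-surface lectins, MS4A proteins, chemokine receptors and interleukin receptors pass signals into leukocytes, although several interleukin receptors are also used by epithelia and other tissues. At this embryonic stage zebrafish have macrophages and neutrophils but no mature lymphocytes. Because whole embryos were measured, fewer cells of a type and less RNA per cell cannot be told apart.

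Of the 38 genes, 33 had higher counts in the mutant library by at least 2-fold and 5 had lower counts by at least 2-fold. The authors listed only genes past about that fold, so the split is read against the whole table, where 68.1% of listed genes passed 2-fold upward and 31.9% downward. Among the 38 the shares were 86.8% and 13.2%. By the ratio of counts with nothing added, but with a count of 0 set to 3, 22 of the 38 passed 4-fold upward (57.9%), against 22.8% of listed genes. By that ratio 4 passed it downward (10.5%), against 4.74%. With 0.5 counts added these were 21 and 3. The median log2 fold change was 2.17, with 0.5 counts added to each library, against 1.31 over all listed genes. Scales centred on the listed genes move every log2 fold change by -1.31 (median) or -1.22 (trimmed mean). Here and below, any upward fold smaller than that shift turns lower on them by construction. On them 1 of the 33 higher genes, the FRAS1-related gene17585, turned lower and 17 were at least 2-fold higher. Neither count was taken over all listed genes, so they only describe the 38. Summed over all 38 genes, the read count was 3043 in WT and 6868 in ezh2-/- embryos, 2.28-fold higher (2.18 to 2.38). Here and below, brackets give a 95% exact interval of a ratio of counts, which covers counting error only.

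The families were represented by low counts, and in this table low counts go with large upward folds. The median count of the 38 genes was 24 in WT and 79.5 in ezh2-/- embryos, against 122 and 196 over all listed genes. After a division of the table at a mean count of 100, chosen after the values were seen, 28 of the 38 genes lay below it. Of those 28, 25 were at least 2-fold higher (89.3%), against 83.7% of the 441 listed genes below that count, and 19 were at least 4-fold higher (67.9%, against 50.3%). Of the 10 genes above it, 8 were at least 2-fold higher (80%, against 59.9% of 846 listed genes) and 3 at least 4-fold higher (30%, against 8.39%). Below that count the share past 2-fold therefore lay close to that of the table, and above it the comparison rests on 10 genes.

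**Figure D1:**
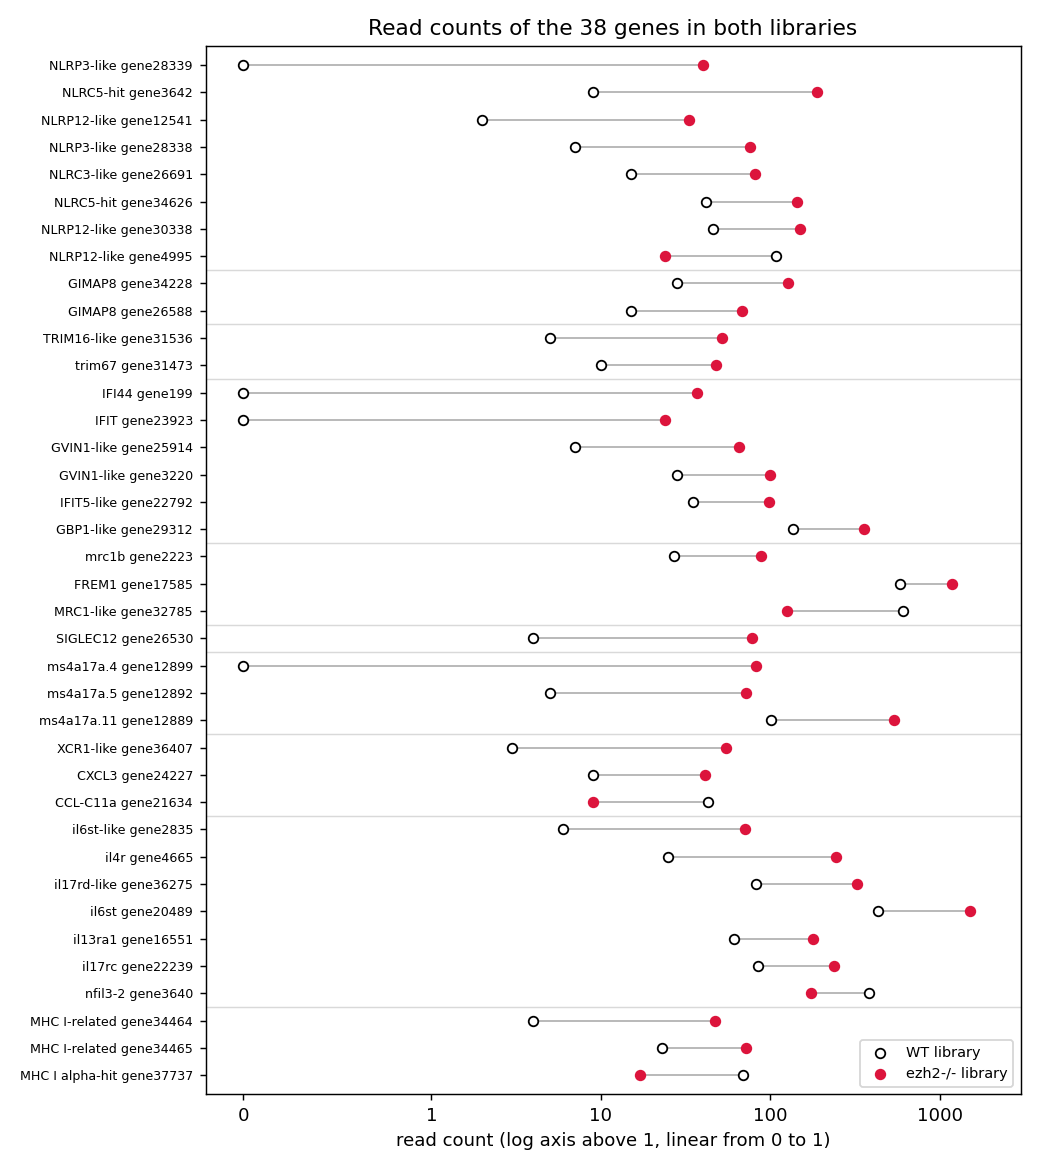
Read count of each of the 38 genes (x axis, log above 1) in the WT library (open circles) and the ezh2-/- library (red), 1 library per genotype, with grey lines between families. In 33 genes the red point lies to the right of the open one, 4 genes have 0 WT counts, and the 5 genes with more WT counts belong to 5 different families.

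Levels were low on the length-scaled FPKM unit as well. In the WT library 25 of the 38 genes (65.8%) had an FPKM below 1, against 30.8% of all listed genes, and none reached 10. In the mutant library 15 (39.5%) were below 1 FPKM, against 12.7% of all listed genes. From below to above 1 FPKM went 14 genes, 11 were below it in both libraries, 9 were above it in both, and 4 went from above to below. These crossings were not counted over all listed genes, so they only describe the 38. The 2 genes above 10 FPKM in the mutant library were ms4a17a.11, at 44.1, and il6st, at 12.1. The fold of a gene at such levels rests on few reads, which the intervals carry.

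Among the NOD-like receptors, 7 of 8 genes were higher in the mutant library. Of all listed genes, 68.1% were higher, and 83.7% of those below a mean count of 100, where every NLR gene lay. Summed over the 8, the read count was 229 in WT and 738 in ezh2-/- embryos, 3.25-fold higher (2.80 to 3.79). Of the WT sum, 108 reads came from the 1 lower gene, gene4995, and the other 7 together were 5.96-fold higher (4.91 to 7.29). Those 7 are a subset chosen by direction, so their sum does not estimate the family. Every NLR gene stayed below 2 FPKM in both libraries, from 0 to 1.01 FPKM in WT and from 0.238 to 1.77 FPKM in ezh2-/- embryos.

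Among NLR genes with WT reads, the largest ratio of counts was that of gene3642, an uncharacterized protein (LOC793004) whose best Swiss-Prot match is NLRC5, known in mammals as an activator of MHC class I genes. It had 9 reads in WT and 190 in ezh2-/- embryos (0.0809 and 1.77 FPKM), 21.3-fold higher (11 to 47.3). A second gene with that Swiss-Prot match, gene34626 (LOC569265), had 42 reads in WT and 144 in ezh2-/- embryos and was 3.46-fold higher (2.44 to 5.01). Both were higher, and their intervals do not overlap. The NLRC3-like gene26691, named after a mammalian receptor that dampens inflammatory signalling, had 15 reads in WT and 81 in ezh2-/- embryos, 5.45-fold higher (3.12 to 10.2).

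A pair of genes carried the name NLRP3-like, after the mammalian inflammasome sensor. Of these, gene28339 had no read in WT and 40 in ezh2-/- embryos. Against 3 WT counts, the floor assumed for a count of 0, gene28339 was 13.5-fold higher (lower interval end 10.5). The other, gene28338, had 7 reads in WT and 76 in ezh2-/- embryos, 11-fold higher (5.07 to 28.2). Both were therefore near silent in the WT library.

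The 3 genes named NLRP12-like did not share a direction. Higher were gene12541, the third gene with an NLRC5 match, with 2 reads in WT and 33 in ezh2-/- embryos (16.7-fold higher (4.26 to 143)), and gene30338, with 46 and 150 (3.29-fold higher (2.35 to 4.69)). The best Swiss-Prot match of gene30338 is no NLR but Ran GTPase-activating protein 1. Lower was gene4995, with 108 reads in WT and 24 in ezh2-/- embryos (1.01 and 0.238 FPKM), 4.46-fold lower (2.84 to 7.25). It was the most abundant NLR of the WT library and the least abundant of the mutant library in FPKM. Its interval does not overlap that of any other NLR gene with WT reads.

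A feature that the selection did not use links some of these receptors. The best Swiss-Prot match of gene28339, gene28338 and gene4995 was a subunit of a stonefish toxin (stonustoxin or neoverrucotoxin). Those toxins carry a B30.2 domain, which many zebrafish NLR and TRIM proteins also have. Over the whole table such a match was given for 6 genes, 3 of them outside the 38 and none of those with an NLR name. Of these, gene4997, named stonustoxin subunit beta-like, was 4.25-fold lower (2.48 to 7.69) with 73 reads in WT and 17 in ezh2-/- embryos, close to the value of gene4995. The other such genes were higher, gene25622 (ftr86 in the RefSeq table, a fish TRIM gene) by 2.54-fold higher (2.18 to 2.96) and gene3094 by 3.56-fold higher (2.05 to 6.52). Genes with this match therefore went both ways, 4 higher and 2 lower, close to the table, where 68.1% of listed genes were higher.

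**Figure D2:**
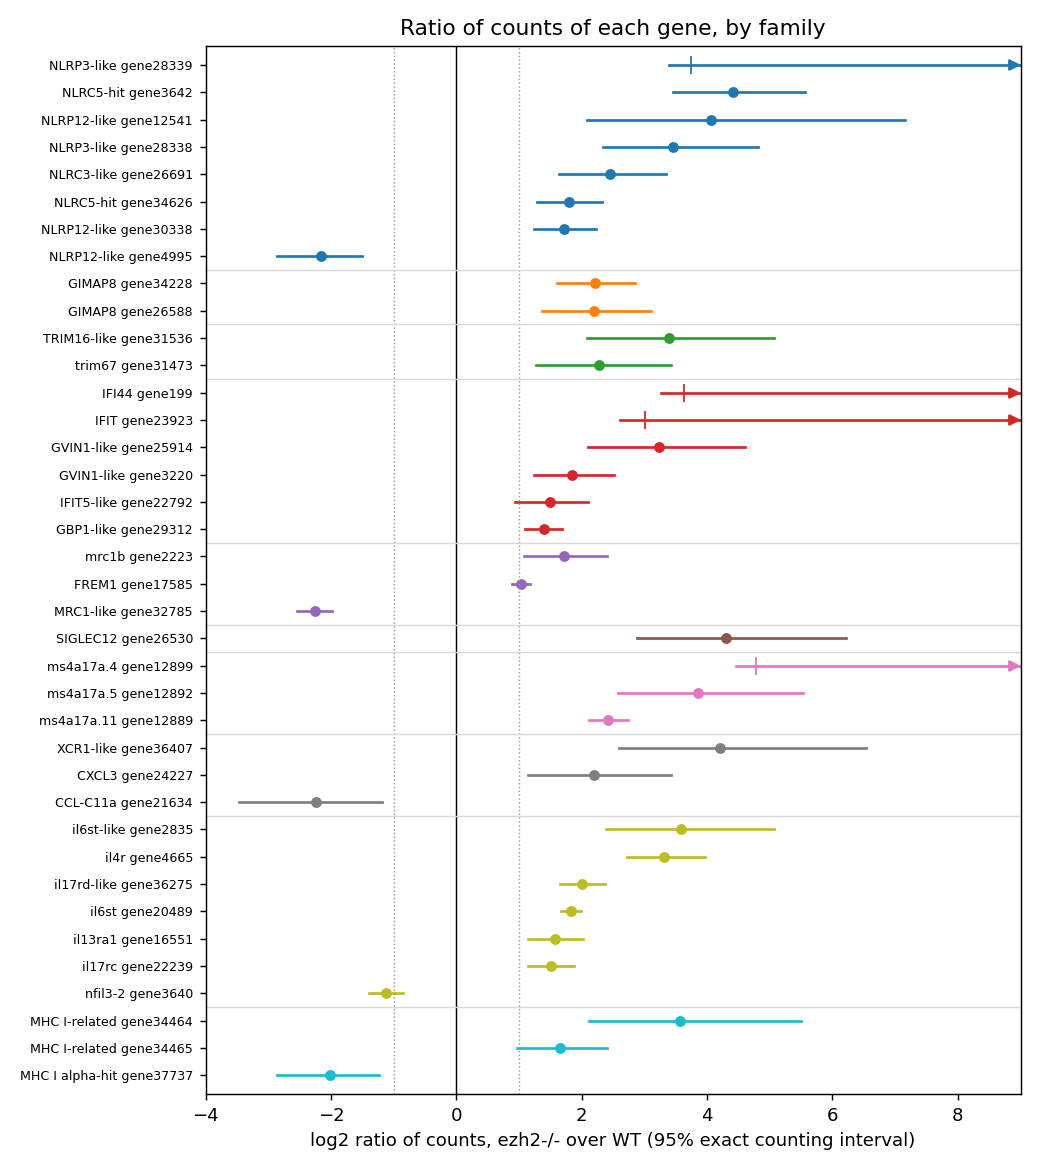
Log2 ratio of counts, ezh2-/- over WT, for each of the 38 genes (points) with its 95% exact counting interval (lines), coloured by family; dotted lines mark 2-fold. Arrows mark genes with 0 WT counts, whose interval has no upper end and whose tick is the ratio against 3 WT counts. Intervals of the 5 lower genes lie wholly below 0.

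All 6 genes named as interferon-induced were higher in the mutant library, as were 68.1% of all listed genes and 83.7% of those below a mean count of 100. The summed count of the 6 was 207 in WT and 680 in ezh2-/- embryos, 3.32-fold higher (2.84 to 3.90). Most reads came from gene29312, a guanylate-binding protein 1-like gene of a family of antimicrobial GTPases. It had 137 reads in WT and 356 in ezh2-/- embryos, 2.62-fold higher (2.15 to 3.22). Without it, the log2 fold of the family's summed counts was 2.22 in place of 1.73.

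Very large interferon-induced GTPases were represented by a pair of genes with 1 name. Counts of gene25914 were 7 and 65, 9.38-fold higher (4.30 to 24.2), and those of gene3220 were 28 and 100, 3.61-fold higher (2.35 to 5.70). Both stayed below 1 FPKM. Summed over the pair, counts were 4.76-fold higher (3.29 to 7.07).

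IFIT proteins, which bind viral RNA in mammals, were named in 2 genes. The first, gene23923, had no read in WT and 24 in ezh2-/- embryos, 8.08-fold higher against 3 WT counts (lower interval end 6.08). The second, the IFIT5-like gene22792, had 35 and 98 counts, 2.83-fold higher (1.90 to 4.29). Interferon-induced protein 44 (gene199), of a family known as interferon-responsive, had no read in WT and 37 in ezh2-/- embryos. Against 3 WT counts gene199 was 12.5-fold higher (lower interval end 9.63). The RefSeq table holds 8 genes with an ifit symbol and 16 with an ifi44 symbol, so close relatives of these genes exist outside the list.

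The other cytoplasmic families were small and higher in both of their members. So were 68.1% of all listed genes and 83.7% of those below a mean count of 100, where these members lay. GTPase IMAP family member 8, of a group of GTPases known for lymphocyte survival in mammals, was the name of 2 genes. They had nearly equal folds: gene34228, with 28 reads in WT and 128 in ezh2-/- embryos, was 4.62-fold higher (3.05 to 7.22), and gene26588, with 15 and 68, was 4.58-fold higher (2.59 to 8.62). Of the TRIM genes, the TRIM16-like gene31536 had 5 reads in WT and 52 in ezh2-/- embryos, 10.5-fold higher (4.22 to 33.7). The other, trim67 (gene31473), had 10 and 48 counts, 4.85-fold higher (2.42 to 10.7). Trim67 is known in mammals as a neuronal protein, not as an immune effector.

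An MS4A gene, ms4a17a.11, had the highest FPKM of the 38 genes in both libraries. MS4A proteins cross the membrane with 4 segments, and the mammalian family includes the B cell antigen CD20 and a subunit of the IgE receptor. Summed over the 3 ms4a17a genes among the 38, the read count was 106 in WT and 691 in ezh2-/- embryos, 6.58-fold higher (5.36 to 8.16). Most came from ms4a17a.11 (gene12889), with 101 reads in WT and 537 in ezh2-/- embryos (8.07 and 44.1 FPKM), 5.37-fold higher (4.33 to 6.71). The others started near 0. Counts of ms4a17a.5 (gene12892) were 5 and 72, 14.5-fold higher (5.95 to 46.1). ms4a17a.4 (gene12899) had no WT read and 82 mutant counts (3.94 FPKM).

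In the RefSeq table of assembly GRCz12tu, 14 ms4a17a genes stand next to each other on 1 chromosome, with no protein-coding gene of another name between the first and the last. The 3 genes belong to that run. A further gene of the run, ms4a17a.2, was listed as uncharacterized protein LOC798290 (gene12893) and so lies outside the 38. It had no read in WT and 48 in ezh2-/- embryos, 16.2-fold higher against 3 WT counts (lower interval end 12.6). No listed gene was matched to the remaining 10. Reads of such neighbouring copies may have been divided between them in the authors' counting.

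The lectin genes did not move together. The 1 Ig-like lectin gene was gene26530, sialic acid-binding Ig-like lectin 12, of a family of sialic acid receptors on leukocytes. It had 4 reads in WT and 78 in ezh2-/- embryos (0.153 and 2.72 FPKM), 19.7-fold higher (7.39 to 74.1). The 3 genes of the C-type lectin group were included only through a Swiss-Prot match to a snake venom lectin. Of these, mrc1b (gene2223), a mannose receptor gene, had 27 reads in WT and 88 in ezh2-/- embryos, 3.29-fold higher (2.12 to 5.27). A second gene named macrophage mannose receptor 1-like (gene32785) went the other way, with 604 reads in WT and 125 in ezh2-/- embryos (4.78 and 0.904 FPKM), 4.78-fold lower (3.94 to 5.85). In FPKM this was the largest WT level after that of ms4a17a.11. The third, a FRAS1-related extracellular matrix protein 1 gene (gene17585), encodes a basement membrane protein and no immune lectin. It had 585 and 1180 counts, 2.04-fold higher (1.84 to 2.25), at the 2-fold edge of the authors' selection. Summed over the 3 genes, counts were 1.16-fold higher (1.07 to 1.25), and summed FPKM were 8.53 and 8.69. Without the matrix gene the mannose receptor pair was 2.93-fold lower (2.51 to 3.44), so the direction of this group depends on that gene. The sum of all 3 also turned lower on both centred scales, by construction for a sum below their shift.

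Chemokine genes also went both ways. Chemokines are small secreted proteins that guide leukocytes through G protein-coupled receptors. The gene named as a receptor, chemokine XC receptor 1-like (gene36407), had 3 reads in WT and 55 in ezh2-/- embryos, 18.5-fold higher (6.01 to 92.5). Its best Swiss-Prot match is a type-1 angiotensin II receptor, so it was included by its NR name only. Of the ligand genes, C-X-C motif chemokine 3 (gene24227) had 9 and 41 counts, 4.60-fold higher (2.2 to 10.8). The CC ligand CCL-C11a (gene21634) had 43 reads in WT and 9 in ezh2-/- embryos (3.85 and 0.948 FPKM), 4.73-fold lower (2.27 to 11). Its KEGG match is ccl25b, the homologue of a ligand that draws lymphocyte precursors to the thymus in mammals, and the product name and the match may refer to different copies. The summed chemokine counts, 1.93-fold higher (1.38 to 2.72), combine these opposite directions. They turned lower on both centred scales, by construction for a sum below their shift.

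The 6 interleukin receptor genes were all higher in the mutant library, as were 68.1% of all listed genes. Summed, the 6 had 690 reads in WT and 2577 in ezh2-/- embryos, 3.77-fold higher (3.47 to 4.11). The most abundant was il6st (gene20489), which encodes gp130, the signalling chain shared by the interleukin-6 family of cytokines. It had 431 reads in WT and 1515 in ezh2-/- embryos (2.95 and 12.1 FPKM), 3.55-fold higher (3.19 to 3.96). A separate il6st-like gene, gene2835, had 6 and 71 counts, 12.0-fold higher (5.23 to 33.7). The level of the il6st-like gene in the mutant library, 1.41 FPKM, lay below that of il6st in the WT library. Without il6st the other 5 receptor genes were 4.14-fold higher (3.61 to 4.76).

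Receptor chains for interleukin-4 and interleukin-13, cytokines of type 2 responses, were listed together. The il4r gene4665 had 25 reads in WT and 246 in ezh2-/- embryos (0.466 and 6.71 FPKM), 9.94-fold higher (6.57 to 15.7). Its product name is tandem duplicate 1 and its KEGG match tandem duplicate 2. A gene named uncharacterized protein il4r.2 (gene4662), outside the 38, has the same KEGG match and was 2.93-fold higher (2.05 to 4.27) with 42 and 122 counts, so how reads of these copies were divided is uncertain. The gene of the partner chain of il4r, il13ra1 (gene16551), had 61 and 180 counts, 2.98-fold higher (2.22 to 4.05). The interval of il4r lies above that of il13ra1.

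Among interleukin-17 receptor names, il17rc (gene22239), a chain of the interleukin-17A receptor in mammals, had 85 reads in WT and 239 in ezh2-/- embryos, 2.84-fold higher (2.21 to 3.68). A gene named interleukin-17 receptor D (gene36275) had 82 and 326 counts, 4.02-fold higher (3.14 to 5.18). The il17rd protein is known in zebrafish as Sef, an inhibitor of fibroblast growth factor signalling. The KEGG match of gene36275 is a gene other than il17rd, so it is reported by its product name only. The remaining gene with an interleukin in its name is no receptor: nfil3-2 (gene3640) encodes a transcription repressor of the basic leucine zipper class. It had 382 reads in WT and 174 in ezh2-/- embryos, 2.17-fold lower (1.81 to 2.62). In the RefSeq table it stands 1 protein-coding gene away from LOC793004, the NLRC5-matched gene that was higher.

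Histocompatibility genes were split. A pair named MHC class I-related was higher: gene34464 had 4 reads in WT and 47 in ezh2-/- embryos, 11.9-fold higher (4.34 to 45.4), and gene34465 had 23 and 72, 3.16-fold higher (1.95 to 5.30). Both carry the same product name, and their Swiss-Prot matches differ, a class II beta chain for gene34464 and a class I alpha chain for gene34465. Lower was gene37737, which has no NR name and the same class I alpha chain match, with 69 reads in WT and 17 in ezh2-/- embryos, 4.02-fold lower (2.34 to 7.29). Summed counts of the 3 were 1.43-fold higher (1.09 to 1.88) but turned lower on both centred scales, by construction for a sum below their shift. Those of the higher pair, a subset chosen by its direction, were 4.45-fold higher (2.91 to 7.03).

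Genes that act with these families were looked up from lists of signalling and antigen presentation genes. Of 34 inflammasome and NF-kB genes, 3 were listed and 3 were higher. Their median log2 fold change, 1.21, lay below the 1.31 of the table. caspa, the zebrafish caspase of the inflammasome, had 55 reads in WT and 161 in ezh2-/- embryos and was 2.96-fold higher (2.16 to 4.09). The NF-kB signalling genes nfkbiaa and nfkbiz were 2.31-fold higher (1.77 to 3.05) and 2.09-fold higher (1.69 to 2.59). Both turned lower on both centred scales, by construction for folds below their shift. Of 37 interferon and cytokine signalling genes, 5 were listed and all 5 were higher (median 2.23 on the same scale). The largest ratio was that of isg15 (gene13323), which encodes an interferon-induced ubiquitin-like protein and was listed under the clone name si:rp71-1c23.2. It had 3 reads in WT and 833 in ezh2-/- embryos (0.174 and 46.8 FPKM), 280.4-fold higher (95.6 to 1363). Another was socs3b, a feedback inhibitor of gp130 signalling, 4.70-fold higher (4.11 to 5.38). The regulators irf1b and irf3 were 6.67-fold higher (4.15 to 11.3) and 4.92-fold higher (2.27 to 12.2).

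Of 26 antigen presentation genes, 3 were listed and all 3 were higher (median log2 fold change 1.71). b2m, the light chain of MHC class I molecules, had 25 reads in WT and 82 in ezh2-/- embryos, 3.31-fold higher (2.09 to 5.41). The peptide-trimming enzyme gene erap1b was 4.92-fold higher (2.85 to 9.04) and the cathepsin S gene ctss2.1 3.21-fold higher (3.03 to 3.40). Of these 11 genes from the 3 lists, 11 were higher, against 68.1% of the table. Some of them, such as irf3 and b2m, had a mean count below 100, where the share was 83.7%. The lists were chosen with earlier results of these data known, so this count only describes them.

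The 2 listed markers of the leukocytes in which many of these families act did not share this direction. Of 20 macrophage and neutrophil markers, 2 were listed, and both were lower (median log2 fold change -1.76), as were 31.9% of all listed genes. The lysozyme gene lyz was 2.48-fold lower (2.17 to 2.84), and spi1a, a myeloid transcription factor gene, was 4.79-fold lower (2.54 to 9.79). These 2 of 20 markers are too few to describe the cells. The other 18 markers were not analysed here. None of 14 lymphoid markers was matched to a listed gene. Markers were matched mainly by gene symbol, so a marker listed under another name could be missed. The part of cell numbers in the differences of the 38 genes was not tested.

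**Figure D3:**
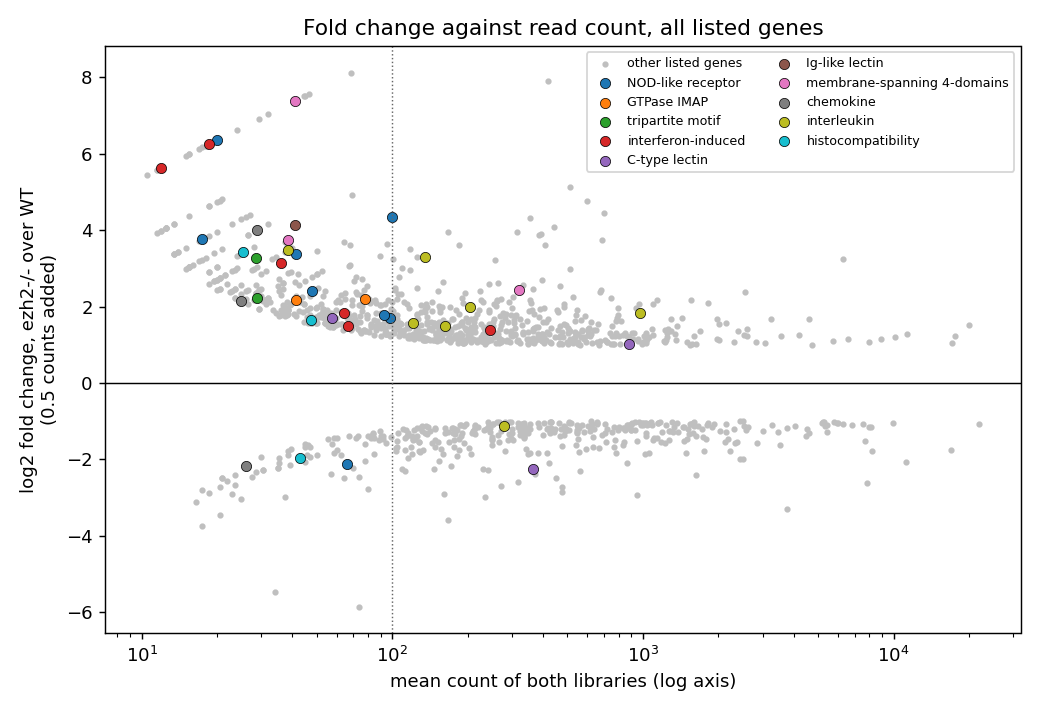
Log2 fold change, ezh2-/- over WT with 0.5 counts added (y axis), against the mean count of both libraries (x axis, log), for the 38 genes by family and all other listed genes (grey); the dotted line marks a mean count of 100. The empty band around 0 and its widening at low counts come from the authors' selection, and 28 of the 38 genes lie left of the line.

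Counts and FPKM gave nearly the same fold for most of the genes. The deposited count per unit of FPKM, which follows the transcript length assumed for a gene, can change between libraries where different transcripts of a gene are counted. Relative to the median of well-counted genes, it differed between the libraries by more than 1.2-fold in 78 of 1031 listed genes with at least 20 counts in both (7.57%). Among the 18 of the 38 genes that meet that count it did so in 2. For il4r it was 0.699 times as high in the mutant library, so that the ratio of FPKM was 14.4 and that of counts 9.94. For the IFIT5-like gene22792 it was 1.53 times as high, and the ratio of FPKM was 1.87 against 2.83 from counts. Below that count, trim67 had the next largest value, 1.42 times as high, with ratios of 3.45 in FPKM and 4.85 in counts. On the FPKM unit the ratio fell below 2 for the IFIT5-like gene and for the FRAS1-related gene17585, at 1.98 against 2.04 from counts.

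**Figure D4:**
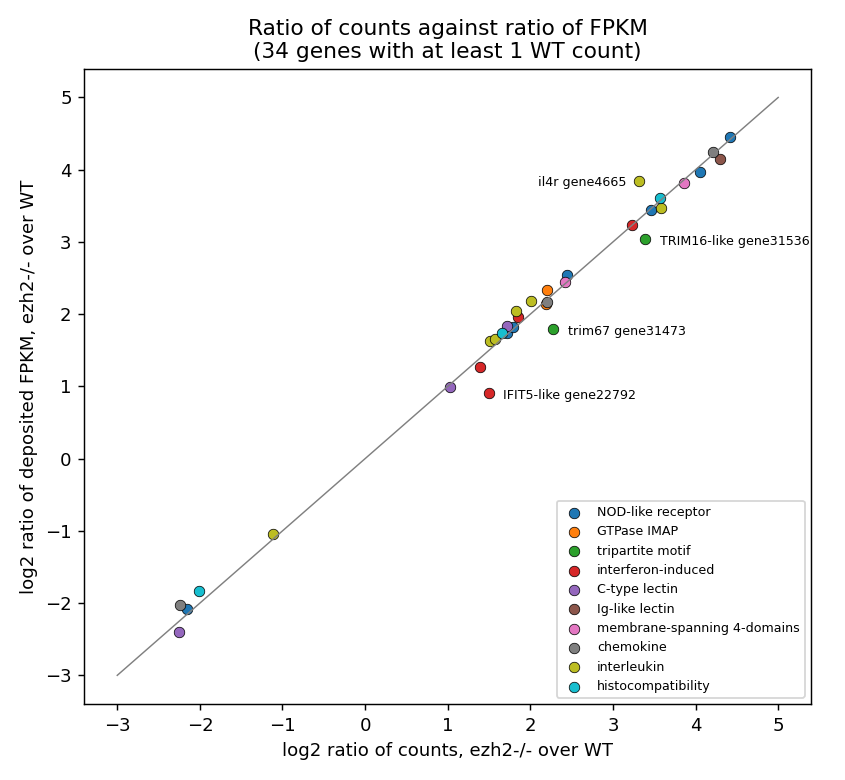
Log2 ratio of deposited FPKM (y axis) against log2 ratio of counts (x axis), ezh2-/- over WT, for the 34 genes with at least 1 WT count; the line marks equal ratios. Most points lie near the line, il4r lies above it (14.4 against 9.94), and the IFIT5-like gene22792 and trim67 lie below it.

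Similar copies limit how far single genes can be read. Shared names join 2 NLRP3-like, 3 NLRP12-like, 2 GIMAP8, 2 very large GTPase, 2 MHC class I-related and 3 ms4a17a genes, and a KEGG match to a zebrafish gene was given for 10 of the 38. Sequence similarity between the copies was not computed here. Copies with 1 name had the same direction in the NLRP3-like, GIMAP8, very large GTPase, MHC class I-related and ms4a17a groups, and opposite directions in the NLRP12-like group. The mannose receptor pair also went opposite ways. Where copies shared a direction it was upward, as for 68.1% of all listed genes and 83.7% of those below a mean count of 100. Copies outside the authors' list were not analysed here.

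Read as CD followed by a number, the words "CD antigen-like" would add 2 genes, chosen after the values were seen. A CD97 antigen-like gene (gene1383), an adhesion receptor name, was 4.35-fold higher (3.10 to 6.24) with 42 reads in WT and 181 in ezh2-/- embryos. A CD99 gene (gene657), a leukocyte and endothelial adhesion molecule in mammals, was 2.11-fold higher (1.89 to 2.36) with 464 and 969. On both centred scales the CD99 gene turned lower, by construction for a fold below their shift. Adding both to the 38 gives 35 higher and 5 lower by at least 2-fold, against 68.1% and 31.9% of all listed genes. Other listed genes, also looked up after the values were seen, belong to these families by their RefSeq symbol although their product names do not say so. Beside ms4a17a.2, il4r.2 and ftr86, they were trim35-1 (gene1341), 3.51-fold higher (2.02 to 6.41), and il11a (gene27116), an interleukin-6 family ligand that signals through gp130, 14.1-fold higher (5.78 to 44.9). All 5 were higher, as were 68.1% of all listed genes and 83.7% of those below a mean count of 100, where all but ftr86 lay.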

How the data were processed

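Per the labels' protocols, poly(A) RNA was isolated from whole embryos and libraries were made with a NEBNext Ultra RNA kit, which does not mark strand, so overlapping and antisense genes cannot be told apart. The submitters' processing notes name GRCz10, Bowtie 0.12.2 and Cufflinks, without their roles. Per the file headers, the authors deposited raw read counts, FPKM (per transcript length and library size, computed by the authors), an FDR (an adjusted p-value) and a log2 fold change. In the authors' deposited table no FDR is above 0.00996 and no log2 fold change lies between -1 and 1, so the table is a selection, and library totals are unknown.

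Folds are ratios of counts, multiplied by the factor of 1.01 that the authors' log2 fold changes imply over the 391 genes whose counts reach 200 in each library. Log2 fold changes have 0.5 counts added, and FPKM alternatives 0.1. Intervals are 95% Clopper-Pearson (scipy 1.17.1). Intervals, and floors of 3 counts, cover counting error only: PCR reads are not independent molecules, and the labels name no molecular identifiers. The interval was tested on simulated data drawn with counting error only. That test cannot show how the interval holds under variation between replicates or the authors' selection. Each gene got 1 family from the first word matched, NR before Swiss-Prot. Each of the 38 genes has at least 20 counts in one library and is named. Genes, lists and alternatives were chosen with earlier results of these data known. Signalling genes were matched by KEGG or Swiss-Prot symbol, by NCBI gene number or clone name in the product name, and spi1a by product name. RefSeq GRCz12tu gave names and neighbours only. Protein identity between copies and promoter motifs were planned but not run. The fixed alternatives were another pseudocount, FPKM, other scales, a count filter and other name matches.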

Additional observations from a re-analysis of the deposited data

How the results depend on the processing

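No paired analysis was possible because each genotype has 1 library, and no library could be left out. Family values here are log2 folds of summed counts, on the authors' scale 1.70 for NLRs, 2.19 for GIMAP, 2.71 for TRIM, 1.73 for interferon-induced, 0.21 for C-type lectins, 4.14 for the Ig-like lectin, 2.71 for MS4A, 0.94 for chemokines, 1.37 for interleukins and 0.51 for histocompatibility genes. Centred on the median of the listed genes, which moves each gene by -1.31, 17 of the 38 passed 2-fold upward and the median was 0.87. The share of all listed genes past 2-fold was not computed on the centred scales. The families were then at 0.39, 0.88, 1.40, 0.42, -1.10, 2.83, 1.41, -0.37, 0.067 and -0.79 in that order. Centred on their 30% trimmed mean, which moves each gene by -1.22, 17 passed upward and the median was 0.95. The families were at 0.48, 0.97, 1.49, 0.50, -1.01 and, after the Ig-like lectin, whose value stayed within its interval, 1.49, -0.28, 0.15 and -0.71. C-type lectins, chemokines and histocompatibility genes therefore changed direction on both scales, which follows from the shift itself.

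From summed FPKM, C-type lectins were at 0.027 and interleukins at 1.58. By the NR name alone, 3 genes were lower, NLRs were at 1.19, histocompatibility genes at 2.13, and no C-type lectin was left. By Swiss-Prot alone, 9 genes were higher and 3 lower, NLRs were at 2.79 and interleukins at 0.12. Without nfil3-2, interleukins were at 1.91. In alternatives chosen after seeing the data, leaving out trim67, the FRAS1-related gene, nfil3-2 and the il17rd-named gene gave -1.55 for C-type lectins and 1.90 for interleukins. Leaving out the gene with the highest count of a family gave 1.33 for NLRs (without gene3642), 2.22 for interferon-induced genes, -1.55 for C-type lectins, 4.83 for MS4A, -0.042 for chemokines (without the XC receptor gene), 0.96 for interleukins (without il6st) and -0.17 for histocompatibility genes (without gene34465). The C-type lectin sum thus turned lower without 1 gene, and the chemokine and histocompatibility sums were then close to 0, at 50 against 52 and 64 against 73 counts. Adding the 5 genes that belong to these families by RefSeq symbol gave 1.5 for TRIM genes. A filter at 20 counts left out no gene. With 5 counts added, 4 single genes, those with 0 WT counts, left their intervals, with FPKM 4 did, and with the authors' log2 fold change none did; none of the 38 changed direction under these settings.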
